A study of Mus musculus with 2 samples.

Results

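The genes described here are 10 that encode proteins of iron storage, uptake, sensing and delivery, together with the heme-degrading enzyme heme oxygenase 1: Fth1, Ftl1, Tfrc, Ireb2, Aco1, Fbxl5, Ncoa4, Pcbp1, Pcbp2 and Hmox1. They were chosen by gene name, and all 10 had values among the 10982 genes of the expression table. RNA was sequenced from 2 cultures of mouse neonatal cardiomyocytes by their labels, that is, heart muscle cells of newborn mice. The control culture was transfected with a negative control, and the other with an antagomir, a chemically modified antisense oligonucleotide, directed against FERPIR, a piRNA. Both samples also carry the treatment label PBS, while strain, dose, time after transfection and any age beyond neonatal were not stated. There was 1 library per group, so no test, p-value or error between replicates could be computed, and every value below describes these 2 libraries only.

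Cells keep free iron low because it drives the formation of reactive oxygen and of lipid peroxides, the damage behind ferroptosis. Transferrin receptor brings iron in, PCBP chaperones pass it to ferritin, ferritin stores it, and NCOA4 carries ferritin to the lysosome, where the iron is released again. The iron regulatory proteins, products of Aco1 and Ireb2, bind iron responsive elements in mRNA when iron is scarce. Bound in the 5′ UTR they block translation, as in the ferritin mRNAs, and bound in the 3′ UTR they slow mRNA decay, as in the Tfrc mRNA. FBXL5 marks the Ireb2 product for degradation when iron is plentiful. Heme oxygenase 1 opens the heme ring and frees its iron, and its gene is a classic target of NRF2 and of stress signals in the heart as in other tissues.

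The iron responsive element is the sequence feature that links these mRNAs, and the elements found in the members are shown here. Annotated UTRs were searched on the mRNA strand for an unpaired C followed by 5 stem bases, the loop CAGTGN and 5 bases able to pair with the stem, with G to T pairs allowed. Of the 10 genes, Fth1 and Ftl1 each held 1 match in the 5′ UTR and Tfrc held 4 in the 3′ UTR. The capitals mark the unpaired C and the 6-base loop, coordinates are on GRCm38, and letters are those of the mRNA, 5′ to 3′, with T for U.
Fth1, 5′ UTR, chr19:9982732-9982760, plus strand: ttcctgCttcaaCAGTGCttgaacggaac
Ftl1, 5′ UTR, chr7:45459779-45459807, minus strand: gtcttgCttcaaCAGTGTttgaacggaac
Tfrc, 3′ UTR, chr16:32631219-32631247, plus strand: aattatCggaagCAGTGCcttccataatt
Tfrc, 3′ UTR, chr16:32631598-32631626, plus strand: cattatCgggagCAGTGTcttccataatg
Tfrc, 3′ UTR, chr16:32631663-32631691, plus strand: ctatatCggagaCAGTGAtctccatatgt
Tfrc, 3′ UTR, chr16:32631710-32631738, plus strand: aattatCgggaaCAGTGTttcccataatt
The Fth1 and Ftl1 windows of 29 bases differed at 3 positions, 1 of them within the 17 bases of the pattern. The pattern was found in 110 of 10867 genes with an annotated UTR, 1.01%, in UTRs of any length. No match lay in the annotated UTRs of the other 7 members, Hmox1 and Pcbp2 among them, which says only that these letters are not there.

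Values are FPKM, that is, fragments divided by transcript length and by the size of the library. They summed to 295404 FPKM with the negative control and 312806 with the antagomir. How many reads stand behind them is unknown, and intervals for counting error could not be computed. Of 14 cardiomyocyte markers 3 had values: Tnnt2 with 1.48 and 8.19 FPKM, Tnnc1 with 4.39 and 18.9 FPKM and Atp2a2 with 67.5 and 20.02 FPKM in control and antagomir. Myh6, Tnni3, Actc1 and the other 8 were without a value here. They may be low or left out for another reason, so these markers do not establish the labelled cell type. Tnnt2 and Tnnc1 lay under the median of 6.74 FPKM in the control and over that of 6.31 in the antagomir library. Of the fibroblast markers 6 of 9 had values, and they summed to 548 FPKM with the negative control and 341 with the antagomir. Of 8 macrophage markers Lyz2 alone had a value, 3.28 and 4.44 FPKM. Of 7 erythroid markers Hba-a1 had 10.2 and 11.5 FPKM and Hba-a2 had 4.22 and 9.23 FPKM. Of 6 endothelial markers 0 had values. The part these cells play in the results below was not tested. In cultures measured in bulk, fewer cells of a type and less RNA per cell cannot be told apart.

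The heme oxygenase gene and the chaperone gene Pcbp2 had lower FPKM in the antagomir library, and the other 8 genes were within 1.5-fold of the control. Ratios are differences of log2(FPKM + 1), antagomir minus control, so those of low genes come out too small. At a limit of 1.5-fold, 2 of 10 members were lower and 0 were higher. Over all 10201 genes that reached 1 FPKM in either library, 13.4% were lower and 10.8% higher by this limit, so a count of 2 in 10 is near the background. As TPM the count over all genes moved from 1364 lower and 1104 higher to 2037 lower and 1071 higher, with the members still at 2 and 0. The median log2 ratio of the members was -0.20, against -0.05 over all genes. The plot of levels in both libraries shows how unequal the members are.

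**Figure D1:**
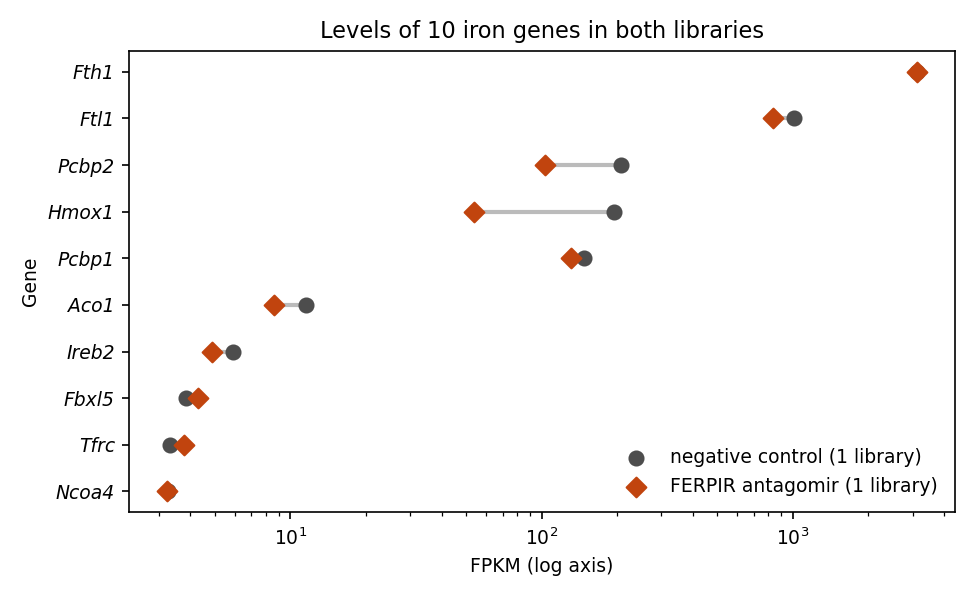
FPKM of the 10 iron genes on a log axis, with 1 circle for the control and 1 diamond for the antagomir library, ordered by the control level. Fth1 lies at 3120 FPKM or more in both libraries, and the widest gap on this axis is that of Hmox1, from 194 to 53.9 FPKM.

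Storage came first in level. Fth1, which encodes the ferritin heavy chain with the ferroxidase activity that oxidises iron for storage, had 3132 FPKM with the negative control and 3120 with the antagomir. The libraries were within 12 FPKM of each other, a log2 ratio of -0.01, and the gene held the second-highest level of all genes in the control and the third-highest in the antagomir library. Ftl1, which encodes the light chain that aids iron core formation, had 1014 and 832 FPKM. The antagomir library was the lower, at 82.1% of the control and a log2 ratio of -0.28. Per length, the Fth1 level was 3.09 times that of Ftl1 in the control and 3.75 times in the antagomir library. Together the ferritin genes took 1.40% of all FPKM with the negative control and 1.26% with the antagomir.

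The Ftl1 value is uncertain, because 8 other annotated genes share at least 200 bases with its mRNA at 90% identity or more. Among them Ftl1-ps1, a copy at 99.56% identity over 910 bases, had a value of its own, 80.5 FPKM with the negative control and 116 with the antagomir. This copy was higher where Ftl1 was lower, and how reads were shared between them is not stated. With both summed, a choice made after the values were seen, the log2 ratio was -0.21. Fth1 had 1 such copy, Gm6977, at 90.46% identity. Ftl1 lies on chr7:45457944-45459884 and Fth1 on chr19:9982703-9985092 in the coordinates of the deposited table.

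Uptake was represented by Tfrc, the gene of the receptor that takes in iron-loaded transferrin, on chr16:32608920-32632794. It had 3.33 FPKM with the negative control and 3.79 with the antagomir. The antagomir library was slightly higher, with a log2 ratio of 0.14, so the mRNA with 4 element matches in its 3′ UTR and the ferritin mRNAs with matches in their 5′ UTRs all lay within 1.5-fold. Over all 102 genes with a match in either UTR and at least 1 FPKM, the median log2 ratio was -0.08, with 13 lower and 7 higher by 1.5-fold, 12.7% and 6.86%. These pooled shares are at or under the 13.4% and 10.8% of all genes. Of 22 genes with a match in the 5′ UTR, 4 were lower and 1 higher, 18.2% and 4.55%. Of 80 with a match in the 3′ UTR, 9 were lower and 6 higher, 11.25% and 7.50%.

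The sensors of cell iron were low in level. Aco1, whose product is a cytosolic aconitase when it holds an iron-sulfur cluster and an RNA-binding iron regulatory protein without it, had 11.5 and 8.61 FPKM. Ireb2, which encodes the iron regulatory protein without aconitase activity, had 5.90 and 4.88 FPKM. Both were lower in the antagomir library, with log2 ratios of -0.39 and -0.23, and neither reached 1.5-fold. Aco1 was 1.96 times the Ireb2 level in the control and 1.76 times in the antagomir library. Fbxl5, the gene of the ubiquitin ligase subunit that senses iron, had 3.86 and 4.27 FPKM, a log2 ratio of 0.12.

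Ncoa4, whose product is the receptor that delivers ferritin to autophagosomes, had 3.25 FPKM with the negative control and 3.23 with the antagomir. This was a log2 ratio of -0.01, with the libraries nearly equal. A processed pseudogene, Gm6768, matches 1878 bases of its mRNA at 99.89% identity, so reads may be shared. The 5 members under 15 FPKM in both libraries, Aco1, Ireb2, Fbxl5, Tfrc and Ncoa4, were all within 1.5-fold. Of all 6632 genes of that level 80.3% were within it, so this too is near the background.

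Among the chaperones that hand iron to ferritin, the 2 genes differed in their ratios. Pcbp1 had 148 FPKM with the negative control and 131 with the antagomir, a log2 ratio of -0.18. Pcbp2 had 207 and 103 FPKM, a log2 ratio of -0.999, and its antagomir value was 49.8% of its control value. The order of the pair turned over: per length, Pcbp2 was 1.40 times the Pcbp1 level in the control and 0.789 times in the antagomir library. These proteins also bind RNA and take part in splicing and translation, so the genes are not specific to iron.

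Pcbp2 lies on chr15:102470632-102500059 and shares 1573 exon bases, 30.2% of its annotated exon sequence, with Map3k12 on the opposite strand. Use of strand in assigning reads is not stated, so its value is uncertain. Map3k12 had 1.02 FPKM with the negative control and 2.21 with the antagomir, levels far under those of Pcbp2 and higher in the antagomir library. Ftl1 shares 355 exon bases, 26.5% of its annotated exon sequence, with Gm10252 on the opposite strand. It also shares 109 with Gm22133 on the same strand, and neither of these genes had a value. Pcbp1 shares 75 exon bases with an antisense gene, and Fbxl5 shares 98 with Bst1.

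Hmox1, the heme oxygenase gene on chr8:75093621-75100589, had the largest ratio between the libraries of the 10 genes. It had 194 FPKM with the negative control and 53.9 with the antagomir, 3.54-fold lower, a log2 ratio of -1.82. Ranked from the lowest ratio it stood at place 52 of 10201 genes, and Pcbp2 at place 390. At least 2-fold lower were 3.79% of all genes compared, and 7.31% of the 629 that reached 100 FPKM in either library. Hmox1 had no exon overlap and no copy at the limits used. Hmox2, the constitutive heme oxygenase gene, had 26.9 and 28.2 FPKM and overlaps Cdip1. The Hmox1 level was 7.19 times that of Hmox2 in the control and 1.91 times in the antagomir library.

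**Figure D2:**
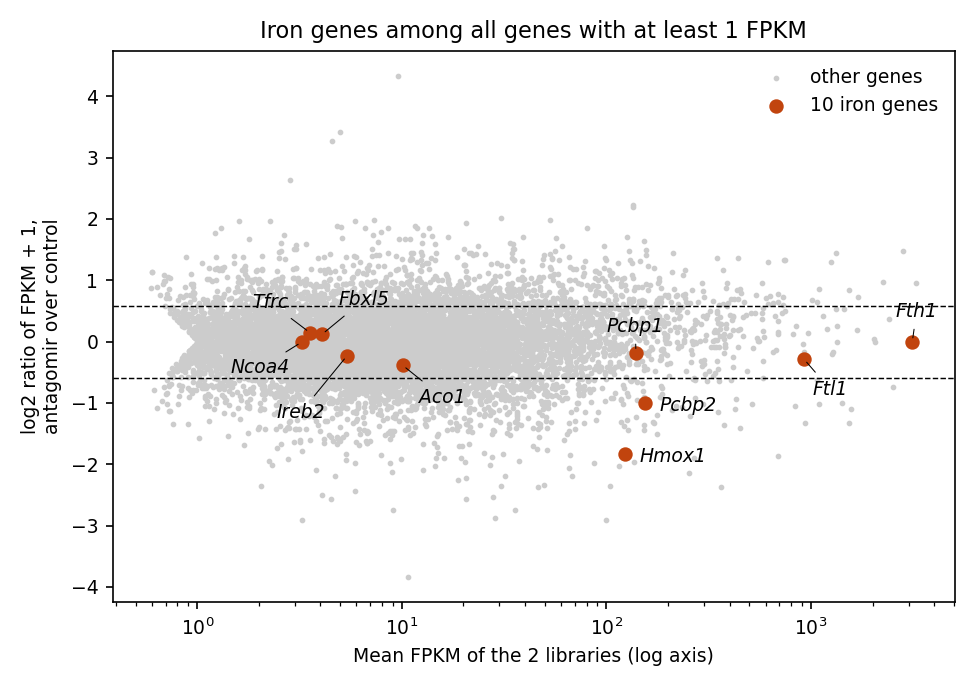
The log2 ratio of FPKM + 1, antagomir over control, against the mean FPKM of both libraries on a log axis for 10201 genes, 1 point per gene, with the 10 iron genes coloured and named and dashed lines at 1.5-fold. Hmox1 at -1.82 and Pcbp2 at -0.999 lie below the lower line and the other 8 between the lines.

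Regulators of Hmox1 transcription were looked at as a list of 8 genes, all with values. The list was chosen with earlier results of these data known. By 1.5-fold 2 of the 8 were lower, against 13.4% of all genes, and 0 were higher. Nfe2l2, the gene of NRF2, which activates Hmox1, had 73.0 FPKM with the negative control and 43.2 with the antagomir, a log2 ratio of -0.74. Hif1a, the oxygen-regulated factor, had 57.8 and 33.5 FPKM, a log2 ratio of -0.77, with exons overlapping those of other genes. The levels of these mRNAs do not show the activity of the factors.

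The remaining regulators were within 1.5-fold as reported, although Atf4 passed it with the length and GC trend removed, at a log2 ratio of -0.61, and Keap1 in other settings, at up to 0.65. Atf4, a stress-response factor, had 563 and 406 FPKM, which was lower by a log2 ratio of -0.47. The repressor gene Bach1 had 3.41 and 4.96 FPKM, and Keap1, whose product holds NRF2 for degradation, had 6.37 and 10.03 FPKM, both higher in the antagomir library. The small MAF partner genes differed in direction: Maff had 17.4 and 23.3 FPKM, Mafg 29.5 and 24.8 FPKM and Mafk 10.6 and 8.44 FPKM. Keap1, Mafg and Mafk overlap exons of other genes.

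Around the 10 members, 119 further symbols of iron and heme handling were listed, with old and new symbols of a few genes both among them, of which 98 had values and 96 reached 1 FPKM. By 1.5-fold, 18 of the 96 were lower and 11 higher in the antagomir library, 18.8% and 11.5%, against 13.4% and 10.8% of all genes. Their median log2 ratio was -0.13. With genes whose exons overlap another gene left out, 10 were lower and 10 higher and the median was 0.03. The lists, like the members, were chosen with earlier results of these data known, and they did not share a direction.

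**Figure D3:**
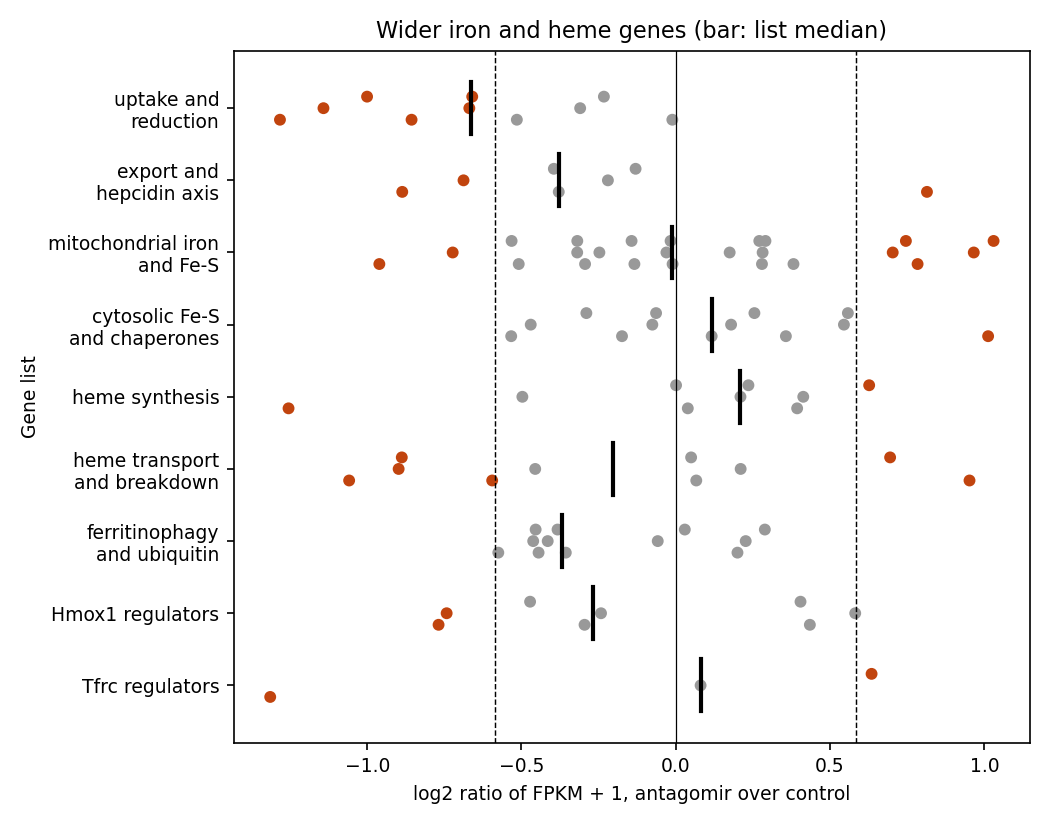
The log2 ratio of FPKM + 1, antagomir over control, for 96 genes in 9 lists, 1 point per gene, with black bars at list medians and colour and dashed lines marking 1.5-fold. The uptake list lies wholly below 0, with a median of -0.66, and the mitochondrial list reaches to both sides.

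In the uptake list all 10 compared genes had log2 ratios below 0, although Steap3, near 0, turned positive, at 0.09, once the trend of ratios with length and GC content was taken out. The list had a median of -0.66 and 6 of 10 genes at least 1.5-fold lower, against 13.4% of all genes. Snx3, which returns transferrin receptor from endosomes to the surface, had 178 and 72.6 FPKM, a log2 ratio of -1.28. Scara5, a receptor gene for ferritin, had 19.4 and 8.25 FPKM, and Prnp, the prion protein gene with reported ferrireductase activity, had 97.7 and 48.3 FPKM and overlaps Prn. Steap1, of a metalloreductase family, had 174 and 110 FPKM, while Steap3, the ferrireductase of endosomes, had 10.2 and 10.1 FPKM. Tfrc itself, with 3.33 and 3.79 FPKM, had a log2 ratio of 0.14, a small difference at a level where precision is unmeasured.

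For export and its hormonal control 7 genes were compared, 2 lower and 1 higher by 1.5-fold. These shares were 28.6% and 14.3%, against 13.4% and 10.8% of all genes. Cp, the gene of the ferroxidase ceruloplasmin, had 7.52 and 3.61 FPKM and overlaps Hps3. Neo1, a co-receptor gene in hepcidin control, had 9.94 and 5.79 FPKM, and its log2 ratio of -0.69 became -0.52, inside the limit, with the length and GC trend removed. Smad4, the shared mediator of BMP signals, had 19.4 and 14.7 FPKM. Slc40a1, which encodes the iron exporter ferroportin and has a matching element in its 5′ UTR, was low in both libraries, at 1.93 and 1.51 FPKM.
Slc40a1, 5′ UTR, chr1:45925465-45925493, minus strand: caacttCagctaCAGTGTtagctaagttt

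The 24 mitochondrial iron genes had a median of -0.01 on the log2 scale, with 2 lower and 5 higher by 1.5-fold. These shares were 8.33% and 20.8%, against 13.4% and 10.8% of all genes. Among the 5 higher mitochondrial iron genes were some that serve iron-sulfur clusters or carry them. Iscu, the scaffold on which clusters are built, had 26.9 and 45.8 FPKM, and Glrx5, which passes clusters on, had 17.1 and 28.5 FPKM. Fdx1, an electron carrier with such a cluster, had 6.85 and 12.5 FPKM. Cisd1, an outer membrane cluster protein gene, had 62.0 and 128 FPKM. The log2 ratios of these 4 genes ran from 0.70 to 1.03, and that of Iscu came to 0.51, under the limit, with the length and GC trend removed.

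On the lower side, Slc25a37, which encodes the iron importer mitoferrin 1, had 14.4 and 8.32 FPKM. Its log2 ratio of -0.72 became -0.575, just inside the limit, with that trend removed. Its exons overlap those of other genes.

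For 13 cytosolic cluster assembly and chaperone genes the median log2 ratio was 0.12, with 1 higher and 0 lower by 1.5-fold as reported. The higher share was 7.69%, and over all genes 10.8% were higher and 13.4% lower. Bola2, which acts with the glutaredoxin Glrx3 in cluster trafficking, had 10.02 and 21.2 FPKM and overlaps other genes. Mms19, which delivers clusters to DNA enzymes, had 5.60 and 3.77 FPKM and overlaps Zdhhc16. In other settings Mms19 and Ndor1 passed the limit, with log2 ratios down to -0.61 and -0.78. Nubp1 and Nubp2 of this list passed it on the higher side, at up to 0.59 and 0.61. Genes of ferritin turnover and of the ubiquitin ligase around FBXL5 had a median of -0.37 over 12 genes, with 0 past 1.5-fold in either direction as reported. In other settings Atg7 and Rb1cc1 passed it, with log2 ratios down to -0.76 and -0.61. The list also holds Rcc1l, which is not taken here as a gene of either kind. Among genes reaching 5 FPKM the list ran from Rcc1l, with 10.7 and 13.3 FPKM, to Rb1cc1. Rb1cc1, an autophagy initiation gene, had 5.09 and 3.42 FPKM, and both overlap other genes. Of the Tfrc regulators, Myc, which activates Tfrc transcription, had 77.0 FPKM with the negative control and 30.4 with the antagomir, a log2 ratio of -1.31, while Tfrc was 1.11-fold higher.

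The median log2 ratio of 9 heme synthesis genes was 0.21, with 1 lower and 1 higher by 1.5-fold. Each was 11.1% of the list, against 13.4% lower and 10.8% higher of all genes. Cpox, coproporphyrinogen oxidase, had 51.6 and 21.1 FPKM, a log2 ratio of -1.25, with exons overlapping Gpr15. The genes of heme transport and breakdown split, with 4 of 10 lower and 2 higher. These shares were 40.0% and 20.0%, against 13.4% and 10.8% of all genes. Biliverdin reductases take over the product of heme oxygenase, and both of their genes were higher where Hmox1 was lower. Blvra had 13.0 FPKM with the negative control and 26.1 with the antagomir, a log2 ratio of 0.95. Blvrb had 12.2 and 20.3 FPKM, and its log2 ratio of 0.69 became 0.49, under the limit, with the length and GC trend removed.

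On the lower side of that list stood some of the genes that move heme. Abcg2, Slc46a1 and Pgrmc1 of the same list were within 1.5-fold, at log2 ratios of 0.21, 0.05 and -0.46. Slc48a1, which encodes a transporter that brings heme out of lysosomes, had 54.8 and 29.1 FPKM and overlaps Hdac7. Pgrmc2, a heme chaperone gene, had 68.7 and 32.5 FPKM. Lrp1, the receptor gene for heme bound to hemopexin and for many other ligands, had 36.1 and 18.9 FPKM. The log2 ratios of Slc48a1, Pgrmc2 and Lrp1 were -0.89, -1.06 and -0.90.

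The direction of the difference was the same in all settings tried for 8 of the 10 members. Fth1 and Ncoa4, near 0, took both signs, from -0.19 to 0.04 and from -0.08 to 0.11. The log2 ratio of Hmox1 ran from -2.02 to -1.78 and that of Pcbp2 from -1.09 to -0.92. Ftl1 ran from -0.72 to -0.21, and it was past 1.5-fold lower only in the 2 settings with the length and GC trend removed.

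**Figure D4:**
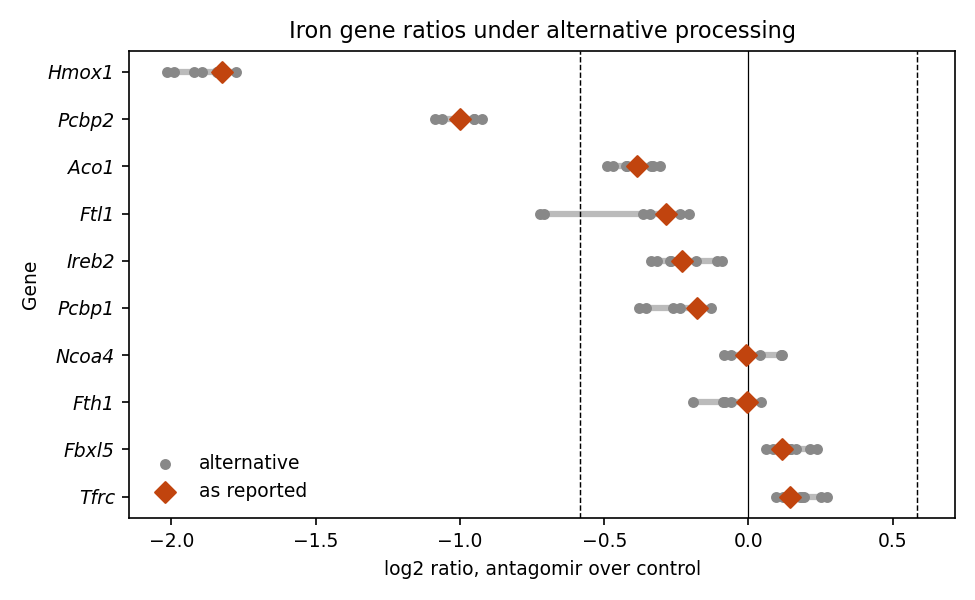
The log2 ratio of each of the 10 iron genes as reported (diamond) and under each alternative processing (dots, with a bar over their range), with dashed lines at 1.5-fold. Hmox1 and Pcbp2 stay left of the lower line, Ftl1 crosses it, and the other 7 stay between the lines.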

How the data were processed

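The authors deposited 1 table of gene-level FPKM values for 10992 rows with 1 column per library, and per the submitters' processing notes the tools were cutadapt, HISAT2 and StringTie 1.3.3 on GRCm38. The annotation release, the settings and whether strand was used were not given in the sources used here. Per the labels' protocols polyadenylated RNA was isolated, libraries were made with a stranded kit, and adaptor ligation at both RNA ends is listed too. FPKM of symbols on several rows (10) were summed. FPKM times transcript length was searched for steps of whole reads: the best step put 32.1% of control and 34.0% of antagomir values within 0.1 read of a whole number, so reads were not recovered and depth is unknown. In every row the higher FPKM was at least 0.501, so a missing gene may be low or left out for another reason.

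The members and lists were chosen with earlier results of these data known. Log2 ratios used a pseudocount of 1 FPKM, and counts cover genes reaching 1 FPKM in either library. Named are all members, the regulators of Hmox1, wider genes reaching 5 FPKM with a 1.5-fold difference, and the extremes of each list at 5 FPKM. Slc40a1, Hmox2, Ftl1-ps1, Map3k12, Ndor1, Nubp1 and Nubp2 were among those added after their values were seen. A few genes that the rule names are not reported here. Lengths, UTRs and exon overlaps came from GENCODE M21 on GRCm38, and copies from BLAST 2.17.0. The length and GC trend was a quadratic fit over log2 length and GC content of the longest transcript, tested on simulated data. Python 3.11.15, pandas 2.3.3, numpy 2.4.6 and matplotlib 3.10.9 were used.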

Additional observations from a re-analysis of the deposited data

How the results depend on the processing

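No paired analysis was possible because each group had 1 library, and none could be left out. Alternatives were pseudocounts of 0.1 and 0.01 FPKM, no minimum or one of 5 FPKM, TPM, centring on the median, rescaling to totals that leave out ribosomal protein, hemoglobin and mitochondrially encoded genes, removal of the length and GC trend, and leaving out genes with exon overlaps. Added after seeing the data were the sum of Ftl1 with Ftl1-ps1 and the trend removal with protein-coding transcripts. Hmox1 and Pcbp2 kept their side of the 1.5-fold limit in all settings tried for single genes. Without genes that overlap others 6 members remained, of which 1, Hmox1, was at least 1.5-fold lower. In the wider list the same setting gave a median log2 ratio of 0.0293 in place of -0.13, and 10 lower genes in place of 18. With the trend removed 7 wider genes were higher in place of 11, and Ftl1 had a log2 ratio of -0.72, or -0.71 with protein-coding transcripts. The unknown depth leaves the precision of genes under 5 FPKM, such as Tfrc, Ncoa4 and Fbxl5, unmeasured.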

Other observations

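Under 5 FPKM, 5 further genes of the wider iron list were past 1.5-fold. Over all genes 13.4% were lower and 10.8% higher by this limit. Of the 6632 genes under 15 FPKM in the higher library 80.3% were within it, and no share for genes under 5 FPKM alone was computed. The metalloreductase gene Steap2 had 4.83 FPKM with the negative control and 2.22 with the antagomir. Mcoln1, the gene of a lysosomal cation channel that passes iron, had 4.89 and 2.70 FPKM, and Flvcr1, a gene first described as a heme exporter, had 4.51 and 2.65 FPKM and overlaps an antisense gene. Hfe2, the hemojuvelin gene, had 1.77 and 3.87 FPKM. Zc3h12a, the gene of the endonuclease Regnase-1, which has been described to cut Tfrc mRNA, had 1.28 and 2.53 FPKM. Thus 3 were lower and 2 higher, at levels where the pseudocount of 1 FPKM shrinks the ratio. With the length and GC trend removed, Flvcr1 at a log2 ratio of -0.50 and Zc3h12a at 0.56 came inside 1.5-fold.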
